A study of Mus musculus with 36 samples.

Results

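The transcription factor TFEB was overexpressed in cardiac macrophages of mice, and its effect on mRNA in the CCR2-negative (CCR2neg) fraction was read from 4 mac-TFEB libraries against 5 CX3CR1-Cre libraries, 9 of the 36 libraries of the series. All 12795 genes of the count table were compared. The mac-TFEB cells came from mice with a TFEB expression cassette behind a floxed stop sequence (TFEB-LoxP-STOP), a tamoxifen-inducible Cre driven by Cx3cr1 (Cx3cr1-er-Cre) and a floxed-stop Td-Tomato reporter. The CX3CR1-Cre cells came from mice with the same Cre and reporter and no TFEB cassette, so both groups carried Cre, the reporter and the tamoxifen. In both groups tamoxifen was fed for 7 days, the heart was then made ischemic for 90 min, and the cells were sorted 7 days after the injury. The labels give no ages, do not say whether a library held 1 animal or a pool, and do not tie each library to an animal of its own. The p-values therefore measure the spread between libraries, which may be technical in part. That spread was estimated within the groups of all 36 libraries, so it rests largely on libraries outside the comparison. Cx3cr1 is also expressed outside the heart, in monocytes, tissue macrophages and microglia. Libraries named Cre-neg, 4 with the cassette (TFEBTG) and 5 without it (TFEBwt), are given beside the results where they bear on them; the labels do not define Cre-neg further. Libraries of the same genotype and number agreed in whether they held Xist RNA in 9 of 9 sets of 4. The Cre-neg and CCR2-positive libraries may therefore come from the same animals as those compared here and are not independent of them. The main fit held no term for shared animals.

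TFEB belongs to the MiT/TFE family of basic helix-loop-helix factors. When the kinase mTORC1 at the lysosome is active, TFEB is phosphorylated and held in the cytoplasm; when nutrients are short or lysosomes are damaged it enters the nucleus and binds a palindromic motif around CACGTG in the promoters of lysosomal and autophagy genes. CCR2neg macrophages of the heart include the resident population, which is maintained largely without blood monocytes, clears dying cells and debris, and presents antigen through MHC class II. After an infarct these cells take up lipid-rich debris of dead cardiomyocytes, which is degraded in the lysosome.

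The 9 libraries held 16547457 to 29896334 counted reads (median 22303723), and 12464 to 12767 of the listed genes had at least 1 read in a library. Defining macrophage genes were read in all 9 libraries: Adgre1, which encodes F4/80, was at 2861 to 3567 CPM (counts scaled to a common library size, the unit of all levels here) in mac-TFEB and at 2053 to 3132 CPM in CX3CR1-Cre libraries, and the CSF1 receptor gene Csf1r at 1822 to 2909 CPM in mac-TFEB and 2564 to 3108 CPM in CX3CR1-Cre libraries. The sort marker Ccr2 averaged 53.8 ± 14.9 CPM in mac-TFEB and 47.2 ± 18.5 CPM in CX3CR1-Cre libraries (SD, n = 4 and 5; adjusted p = 0.861). CX3CR1-Cre library 3 and mac-TFEB library 1 stood somewhat apart, with a mean correlation with the other libraries of their group of 0.927 and 0.929, against 0.949 to 0.956 in the other 7. Xist was read above 10 CPM in 2 of 4 mac-TFEB libraries (3 and 4) and in 4 of 5 CX3CR1-Cre libraries (2 to 5), so the groups differ in the share of libraries with an inactive X chromosome.

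Tfeb (ENSMUSG00000023990, chromosome 17, 47737030 to 47792419, GRCm38) was far higher in every mac-TFEB library. It was at 335, 250, 98.1 and 67.4 CPM in mac-TFEB libraries 1 to 4, against 7.78, 8.76, 8.86, 7.48 and 6.66 CPM in CX3CR1-Cre libraries 1 to 5. The groups did not overlap, and within mac-TFEB library 1 was the highest and library 4 the lowest. The fitted difference was 23.7-fold, a log2 fold change of 4.57 ± 0.46 (standard error; adjusted p = 1.06e-07, edgeR's quasi-likelihood test with Benjamini-Hochberg adjustment over 12795 genes). Counts do not separate cassette transcripts from those of the endogenous gene. The relatives of Tfeb did not pass the test in this fit. Tfe3, a factor that binds the same motif, was at 70.9 ± 4.22 CPM in mac-TFEB and 93.8 ± 16.5 CPM in CX3CR1-Cre libraries (adjusted p = 0.0922). Mitf, the melanocyte and osteoclast member, had a log2 fold change of 0.27 ± 0.17 (adjusted p = 0.492). Tfec, a member found mainly in myeloid cells, had one of 0.52 ± 0.21 (adjusted p = 0.234). Among 11 fits with other methods or sets of libraries, Tfe3 was called lower in 5, Tfec higher in 2 and Mitf in 0. Leaving out 1 library gave no call for any of them.

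Of the 12795 genes, 176 (1.38%) were called at an adjusted p under 0.05, 118 of them higher (0.922% of all genes) and 58 lower (0.453%) in mac-TFEB. The median log2 fold change was 0.84 among the called increases and -0.85 among the called decreases, beside 0.01 over all genes, and 38 of the increases and 21 of the decreases were at least 2-fold. In 145 of the called genes the 4 mac-TFEB values did not overlap the 5 CX3CR1-Cre values; over all genes tested, 2.81% lay wholly above and 3.2% wholly below. Protein-coding genes made up 172 of the calls. The number of calls depended on single libraries: it was 59 without mac-TFEB library 3, 82 without mac-TFEB library 4, and 95, 107 and 117 without CX3CR1-Cre libraries 3, 4 and 5, while without mac-TFEB library 1 it was 260. A fit to the 9 libraries alone, without the spread of the other groups, called 71.

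**Figure D1:**
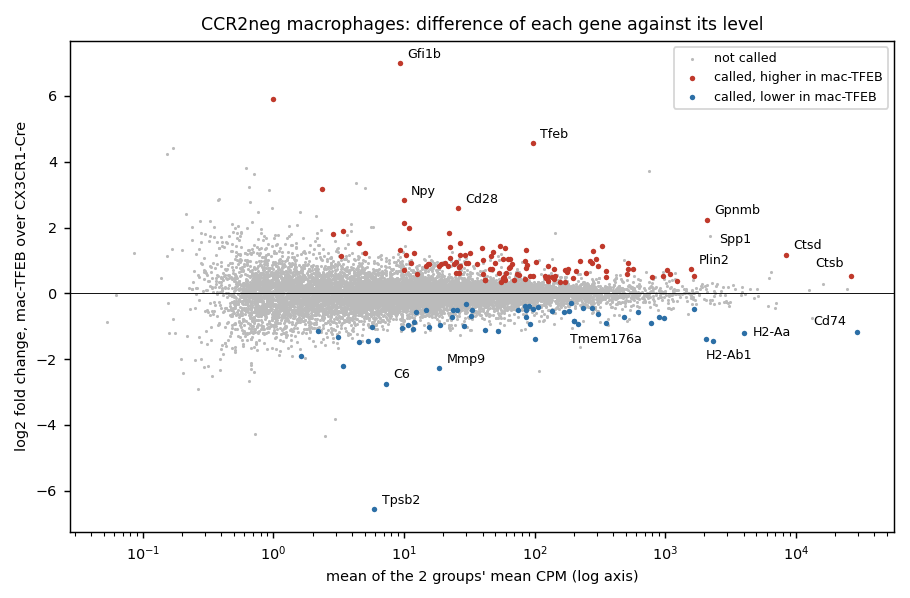
Log2 fold change of each of the 12795 genes in CCR2neg macrophages, mac-TFEB over CX3CR1-Cre (vertical axis), against the mean of the 2 groups' mean CPM (horizontal, log axis); red and blue points are the 118 and 58 called genes, grey points the rest. Tfeb and Gfi1b stand highest among the called genes of 10 CPM or more in a group, and Cd74, H2-Aa and H2-Ab1 are decreases at levels above 1000 CPM.

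A minority of the lysosomal genes rose, and most were not called. Of 104 measured members of 4 lists (cathepsins, other hydrolases, subunits of the proton pump, and membrane proteins and channels) 9 rose (8.65%, beside 0.922% of all genes) and 2 fell (1.92%, beside 0.453%), and their median log2 fold change was 0.08. The aspartic protease cathepsin D (Ctsd, ENSMUSG00000007891, chromosome 7, 142375911 to 142388038) was at 7804, 10381, 14046 and 14436 CPM in mac-TFEB libraries and at 5532, 6673, 4489, 4581 and 4668 CPM in CX3CR1-Cre libraries. All 4 mac-TFEB libraries lay above all 5 CX3CR1-Cre libraries, and Ctsd rose 2.25-fold (log2 1.17 ± 0.17, adjusted p = 0.000132). Its Cre-neg means were 10335 CPM in TFEBTG and 7923 CPM in TFEBwt libraries. Of the exon bases of Ctsd, 34.4% are shared with the gene model Gm49369 on the same strand, so reads there may have been left uncounted or assigned to either gene. Cathepsin B (Ctsb), a cysteine protease, rose 1.46-fold, with means of 31389 CPM in mac-TFEB and 21560 CPM in CX3CR1-Cre libraries. The remaining cathepsins were not called, among them Ctss, Ctsl, Ctsz and Ctsc, with log2 fold changes of 0.45, 0.30, 0.23 and -0.26. The secreted cathepsin inhibitor cystatin C (Cst3), placed in the same list, fell, with a mean of 1375 CPM in mac-TFEB and 1929 CPM in CX3CR1-Cre libraries (log2 -0.49 ± 0.13).

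Acid lipase, which frees cholesterol and fatty acids from lipoproteins and cell debris in the lysosome, is encoded by Lipa (ENSMUSG00000024781, chromosome 19, 34492318 to 34527474). Lipa was at 1015, 1444, 1443 and 1356 CPM in mac-TFEB libraries and at 939, 1040, 807, 824 and 792 CPM in CX3CR1-Cre libraries. Library 1 of mac-TFEB lay just under the highest CX3CR1-Cre library, and the increase was 1.49-fold (log2 0.58 ± 0.11, adjusted p = 0.00345). Cre-neg means of Lipa were 1288 CPM in TFEBTG and 1151 CPM in TFEBwt libraries. Pld3, a lysosomal exonuclease of single-stranded nucleic acids, rose 1.64-fold. Plbd1, a phospholipase B-like hydrolase, went the other way, at 68.1, 53.3, 46.3 and 55.0 CPM in mac-TFEB libraries against 116, 116, 163, 149 and 179 CPM in CX3CR1-Cre libraries (log2 -1.38 ± 0.21, adjusted p = 0.000185). The other 38 of 41 hydrolases were not called, with a median of 0.13 over the list.

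The proton pump that acidifies the lysosome had 2 called subunits among 18: Atp6v1a, which carries the catalytic site, rose 1.42-fold (937 ± 91.4 CPM in mac-TFEB, 659 ± 64.8 CPM in CX3CR1-Cre libraries), and Atp6v0a1, of the membrane sector, 1.38-fold. Atp6v1c1 and Atp6v0d2 had log2 fold changes of 0.51 ± 0.14 and 1.84 ± 0.51 and missed the threshold (adjusted p = 0.0562 and 0.0617). Among 30 membrane proteins and channels, Mcoln3, Mcoln2 and Npc1 rose (10%, beside 11.1% of the pump subunits and 0.922% of all genes). Mcoln2 and Mcoln3 encode cation channels of endosomes and lysosomes and lie next to each other on chromosome 3. Mcoln2 was at 42.2, 66.4, 71.9 and 76.6 CPM in mac-TFEB libraries and at 31.0, 38.7, 29.8, 24.1 and 22.2 CPM in CX3CR1-Cre libraries, a 2.21-fold increase (adjusted p = 0.00633). Mcoln1, the channel through which lysosomal calcium acts on TFEB, was at 10.8 ± 2.62 CPM in mac-TFEB and 13.6 ± 4.51 CPM in CX3CR1-Cre libraries (adjusted p = 0.637). Npc1, which exports cholesterol from the lysosome, rose 1.31-fold with little spread, at 142 to 145 CPM in mac-TFEB and 101 to 120 CPM in CX3CR1-Cre libraries. Lamp1, the abundant lysosomal membrane glycoprotein, had a log2 fold change of 0.28 ± 0.20 (adjusted p = 0.575).

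Igf2r and Sort1, which both encode receptors that carry newly made hydrolases from the Golgi to the lysosome, were named among the largest increases and belong to none of the lists. The cation-independent mannose 6-phosphate receptor (Igf2r, chromosome 17, 12682406 to 12769664) was at 24.4, 30.4, 62.6 and 61.1 CPM in mac-TFEB libraries and at 13.3, 22.96, 22.6, 15.9 and 19.7 CPM in CX3CR1-Cre libraries (2.36-fold, adjusted p = 0.0154). Sortilin (Sort1) rose 2.48-fold (13.3 ± 6.28 CPM in mac-TFEB, 5.36 ± 1.16 CPM in CX3CR1-Cre libraries). For both, libraries 3 and 4 of mac-TFEB were high and library 1 was near the CX3CR1-Cre values. Igf2r was not low in Cre-neg cells, with means of 46.6 CPM in TFEBTG and 45.2 CPM in TFEBwt libraries, beside 44.6 CPM in mac-TFEB. Sort1 averaged 16.6 CPM in TFEBTG and 10.7 CPM in TFEBwt Cre-neg libraries. In the autophagy list of 46 genes, 1 rose (2.17%, beside 0.922% of all genes). It was Atg7, the E1-like enzyme that activates ATG12 and LC3 for conjugation, 1.36-fold (161 ± 14.0 CPM in mac-TFEB, 118 ± 8.47 CPM in CX3CR1-Cre libraries). The autophagy receptor gene Sqstm1 was at 545 ± 62.6 CPM in mac-TFEB and 531 ± 50.0 CPM in CX3CR1-Cre libraries (adjusted p = 0.930). In the list of the TFE family and nutrient sensing, Fnip2, a folliculin partner in the lysosomal control of mTORC1 and TFE factors, rose beside Tfeb itself, 2.03-fold. Ctsd, Lipa and Mcoln2 were called whichever library was left out, though Lipa lost the call in a fit to the 9 libraries alone (adjusted p = 0.0718). Without mac-TFEB library 3 the adjusted p was 0.241 for Mcoln3, 0.173 for Atp6v0a1, 0.146 for Igf2r and Atg7, 0.145 for Pld3, 0.115 for Sort1, 0.0946 for Atp6v1a, 0.0760 for Npc1 and 0.0634 for Fnip2, and for Ctsb and Cst3 it was 0.110 and 0.258 without mac-TFEB library 4; all of these but Fnip2 lost the call without at least 1 more library.

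The promoters that hold the palindrome TCACGTGA are shown because they place the motif of TFEB before 4 genes that rose and 1 that fell. Windows of 250 bases before to 50 bases after the RefSeq transcription start (GRCm38.p6) were found for 9766 of the tested genes, and both strands were searched. Shares are of genes with a window, and a gene with several windows counted if any of them held the motif. CACGTG was found for 18.1% of called increases (17 of 94 genes), 12.8% of called decreases (6 of 47), 27.5% of the lysosomal lists (22 of 80) and 11.8% of all genes. Asb2 had 2 windows, and only the 1 shown held CACGTG. The longer TCACGTGA, which contains CACGTG, was in 4.26% of called increases (4 genes), 2.13% of called decreases (1 gene), 12.5% of the lysosomal lists and 2.22% of all genes, and GTCACGTG, which also contains it, in 8.51% of increases, 6.38% of decreases, 18.8% of the lysosomal lists and 4.79% of all genes. A match describes the letters of the window and is not a measured binding site. The sequences run 5′ to 3′ on the strand of the gene, with CACGTG in capitals, at chr7:142387778-142388077 (minus strand) for Ctsd, chr16:44139210-44139509 (minus) for Atp6v1a, chr17:12769657-12769956 (minus) for Igf2r, chr10:111164552-111164851 (plus) for Osbpl8 and chr12:103355952-103356251 (minus) for Asb2.
Ctsd: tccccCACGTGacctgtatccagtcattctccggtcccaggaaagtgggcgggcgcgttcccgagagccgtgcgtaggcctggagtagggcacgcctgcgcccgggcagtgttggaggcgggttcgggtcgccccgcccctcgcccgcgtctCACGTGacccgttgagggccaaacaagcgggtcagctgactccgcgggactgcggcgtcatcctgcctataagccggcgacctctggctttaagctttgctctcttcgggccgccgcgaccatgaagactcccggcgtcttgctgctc
Atp6v1a: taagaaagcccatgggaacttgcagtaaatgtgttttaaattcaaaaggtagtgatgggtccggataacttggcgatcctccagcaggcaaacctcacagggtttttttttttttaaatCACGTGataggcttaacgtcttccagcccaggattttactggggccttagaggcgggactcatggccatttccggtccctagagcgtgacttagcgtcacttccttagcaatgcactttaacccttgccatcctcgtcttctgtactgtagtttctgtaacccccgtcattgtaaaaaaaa
Igf2r: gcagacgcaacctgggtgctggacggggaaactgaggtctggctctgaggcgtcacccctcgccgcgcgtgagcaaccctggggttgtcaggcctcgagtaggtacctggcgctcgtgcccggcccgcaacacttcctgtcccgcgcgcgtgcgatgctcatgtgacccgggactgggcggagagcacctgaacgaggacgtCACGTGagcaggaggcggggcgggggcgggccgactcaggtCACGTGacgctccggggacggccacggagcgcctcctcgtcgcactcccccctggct
Osbpl8: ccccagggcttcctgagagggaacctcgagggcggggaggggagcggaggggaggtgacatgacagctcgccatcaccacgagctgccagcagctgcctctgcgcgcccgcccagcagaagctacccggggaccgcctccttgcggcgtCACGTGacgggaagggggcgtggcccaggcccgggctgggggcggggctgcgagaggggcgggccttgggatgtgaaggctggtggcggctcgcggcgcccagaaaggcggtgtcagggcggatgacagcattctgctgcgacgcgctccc
Asb2: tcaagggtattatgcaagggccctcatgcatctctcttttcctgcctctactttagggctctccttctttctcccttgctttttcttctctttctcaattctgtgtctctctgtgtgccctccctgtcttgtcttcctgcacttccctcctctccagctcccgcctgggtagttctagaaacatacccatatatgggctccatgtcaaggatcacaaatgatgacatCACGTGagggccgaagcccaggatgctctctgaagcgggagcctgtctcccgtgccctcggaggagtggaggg
Ctsd and Igf2r each held 2 copies of CACGTG, at -245 and -98 and at -48 and -7 from the start, and Atp6v1a and Osbpl8 held 1, at -131 and -101. Osbpl8, which encodes a lipid transfer protein of the endoplasmic reticulum and was named after its values were seen, rose 1.85-fold (87.8 ± 31.0 CPM in mac-TFEB, 47.3 ± 3.06 CPM in CX3CR1-Cre libraries; adjusted p = 0.0118). Asb2, a ubiquitin ligase adaptor likewise named after its values were seen, held 1 copy at -23 and fell (1.20 ± 0.330 CPM in mac-TFEB, 5.58 ± 3.90 CPM in CX3CR1-Cre libraries; adjusted p = 0.0378); without mac-TFEB library 3 the adjusted p was 0.146 for Osbpl8 and 0.205 for Asb2. Single copies of CACGTG also lay in the windows of Mcoln2, Plin2, Nceh1, Atg7 and Bhlhe41, which rose, and of Plbd1 and Batf3, which fell, and none lay in those of Gpnmb, Lipa, H2-Aa and H2-Eb1.

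**Figure D2:**
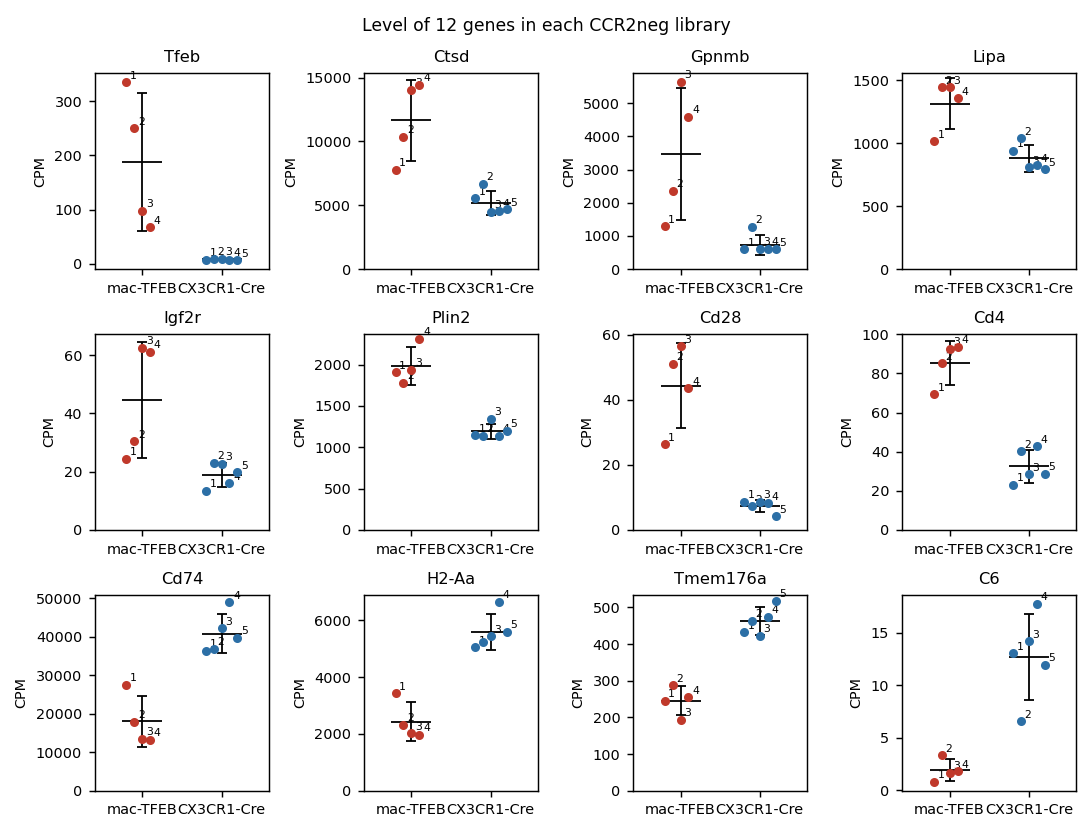
CPM of 12 genes in each CCR2neg library (vertical axes start at 0), with mac-TFEB libraries in red on the left of each panel and CX3CR1-Cre libraries in blue on the right; numbers are label numbers, the long bar is the mean and the whiskers are 1 SD (n = 4 and 5). The groups do not overlap in any panel but that of Lipa, and in the panels of Ctsd, Gpnmb and Igf2r mac-TFEB library 1 is the lowest of its group while in that of Tfeb it is the highest.

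Of 23 measured members of the lipid-associated macrophage list, 5 rose (Gpnmb, Fabp5, Ctsd, Lipa and Ctsb, 3 of them shared with the lysosomal lists; beside 0.922% of all genes), none fell, and the median log2 fold change was 0.33, beside 0.01 over all genes. The transmembrane glycoprotein GPNMB marks macrophages whose lysosomes are loaded with lipid. Gpnmb (ENSMUSG00000029816, chromosome 6, 49036546 to 49070929) was at 1283, 2362, 5645 and 4598 CPM in mac-TFEB libraries and at 599, 1267, 608, 607 and 594 CPM in CX3CR1-Cre libraries. The lowest mac-TFEB library was only just above CX3CR1-Cre library 2, which stood above the other 4 libraries of its group, and the difference was 4.72-fold (log2 2.24 ± 0.43, adjusted p = 0.00345). Gpnmb averaged 2461 CPM in TFEBTG and 1250 CPM in TFEBwt Cre-neg libraries. The fatty acid carrier Fabp5 rose 2.73-fold, at 25.1, 50.4, 134 and 111 CPM in mac-TFEB and 23.02 to 38.9 CPM in CX3CR1-Cre libraries. Spp1, the secreted protein osteopontin, was at 884, 1385, 9621 and 1608 CPM in mac-TFEB and at 633 to 1410 CPM in CX3CR1-Cre libraries; 1 library carried the difference and it was not called (adjusted p = 0.129).

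Of 35 genes of lipid uptake, storage and efflux, 3 were called higher (Fabp5, Plin2 and Soat1, beside 0.922% of all genes) and none lower, at a median of 0.01. At an unadjusted p under 0.05 in edgeR, 8 were higher and 5 lower, beside 7.25% and 7.39% of all genes. The summed level of the list went the other way without overlap, at 13620 to 18970 CPM in mac-TFEB and 19140 to 25050 CPM in CX3CR1-Cre libraries. Perilipin 2 (Plin2), which coats lipid droplets, was at 1905, 1779, 1939 and 2309 CPM in mac-TFEB libraries and at 1145, 1140, 1348, 1138 and 1200 CPM in CX3CR1-Cre libraries, without overlap and with a 1.66-fold increase (adjusted p = 0.00346). Plin2 averaged 2008 CPM in TFEBTG and 1668 CPM in TFEBwt Cre-neg libraries, beside 1983 CPM in mac-TFEB. Soat1, the enzyme that esterifies cholesterol for storage in droplets, rose 1.59-fold. Among genes named after their values were seen, the neutral cholesterol ester hydrolase gene Nceh1 rose 1.61-fold (257 ± 29.4 CPM in mac-TFEB, 160 ± 26.1 CPM in CX3CR1-Cre libraries; adjusted p = 0.00134) and Gramd1b, which carries cholesterol from the plasma membrane to the endoplasmic reticulum, 1.88-fold (adjusted p = 0.00901). None of 30 genes of sterol and fatty acid synthesis was called by edgeR (median 0.14; 6 higher and 2 lower at an unadjusted p under 0.05); among them Fdft1, squalene synthase, was at 17.7 ± 3.92 CPM in mac-TFEB and 11.4 ± 2.19 CPM in CX3CR1-Cre libraries (adjusted p = 0.160), and its exons overlap Ctsb on the opposite strand, which these unstranded reads cannot separate. Gpnmb, Plin2 and Nceh1 were called whichever library was left out, while without mac-TFEB library 3 the adjusted p was 0.309 for Fabp5, 0.0946 for Soat1 and 0.0744 for Gramd1b. Fabp5 also lost its call without mac-TFEB library 4 or any of CX3CR1-Cre libraries 1, 3, 4 and 5.

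MHC class II genes, whose products present peptides from the endosome and lysosome to helper T cells, fell together. Of 14 measured members, 7 fell (beside 0.453% of all genes) and none rose, with a median log2 fold change of -0.74. In the bulk RNA of a sorted fraction, fewer cells of one type and less RNA per cell cannot be told apart. The invariant chain gene Cd74 (ENSMUSG00000024610, chromosome 18, 60803848 to 60812652), whose product chaperones class II molecules, was at 27457, 17986, 13494 and 13237 CPM in mac-TFEB libraries and at 36343, 36855, 42180, 48980 and 39787 CPM in CX3CR1-Cre libraries. H2-Aa, the alpha chain of I-A, was at 3438, 2331, 2024 and 1961 CPM in mac-TFEB libraries and at 5050, 5222, 5441, 6649 and 5605 CPM in CX3CR1-Cre libraries. In both genes every mac-TFEB library lay below every CX3CR1-Cre library, and library 1 was the highest of the mac-TFEB libraries.

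The decrease took in the chains of the peptide-binding molecule, their loading factors and their activator. Log2 fold changes were -1.18 ± 0.19 for Cd74, -1.20 ± 0.16 for H2-Aa, -1.44 ± 0.25 for its beta chain partner H2-Ab1 and -1.38 ± 0.23 for the I-E beta chain H2-Eb1 (adjusted p between 3.82e-05 and 0.00106). The genes of the peptide exchange factor H2-DM fell less, H2-DMa by 0.73 and H2-DMb1 by 0.83 on the log2 scale. Ciita, the transactivator on which class II transcription depends, was at 23.05, 22.6, 16.1 and 14.6 CPM in mac-TFEB libraries and at 38.9, 30.0, 40.5, 44.3 and 36.6 CPM in CX3CR1-Cre libraries (adjusted p = 0.0121). Its DNA-binding partners Rfx5, Rfxank and Rfxap were not called (log2 -0.75, -0.07 and -0.30), nor were H2-DMb2, H2-Oa, H2-Ob and Ifi30. H2-DMa, H2-DMb1, H2-Ab1, H2-Aa and H2-Eb1 lie between 34119541 and 34305867 on chromosome 17, while Cd74 and Ciita lie on chromosomes 18 and 16. Dendritic cell markers, summed over 16 genes, were at 343 to 375 CPM in mac-TFEB and 405 to 476 CPM in CX3CR1-Cre libraries, with Flt3 at 2.47 to 7.16 CPM in mac-TFEB and 1.12 to 4.02 CPM in CX3CR1-Cre libraries; their part in the class II decrease was not tested. Of 21 genes of the MHC class I pathway none was called by edgeR (median -0.14), though 7 were lower at an unadjusted p under 0.05, beside 7.39% of all genes. Among them H2-D1 was at 5384 ± 872 CPM in mac-TFEB and 6979 ± 519 CPM in CX3CR1-Cre libraries. All class II calls but that of Ciita held whichever library was left out; without mac-TFEB library 4 or 3 Ciita lost its call, with an adjusted p of up to 0.0985.

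The class II genes were also lower in the Cre-neg cells that carried the cassette. Between the Cre-neg groups, H2-Aa averaged 1729 CPM in TFEBTG and 2870 CPM in TFEBwt libraries and H2-Ab1 806 CPM in TFEBTG and 1682 CPM in TFEBwt libraries, and H2-Aa, H2-Ab1, H2-Eb1 and H2-DMb1 were called there (adjusted p = 0.0345, 0.0412, 0.0345 and 0.0489); the median of the 14 members was -0.38. By the study's own design, genes called in that comparison are set aside, and for all 176 genes this removed 13 and left 163, 116 higher and 47 lower. Tfeb itself averaged 21.1 CPM in TFEBTG and 6.65 CPM in TFEBwt Cre-neg libraries.

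Co-stimulatory and co-inhibitory receptors rose in 4 of 17 cases, beside 0.922% of all genes, and fell in none, beside 0.453% (median 0.11). Cd28, best known as the co-stimulatory receptor of T cells, was at 26.3, 51.2, 56.6 and 43.6 CPM in mac-TFEB libraries and at 8.57, 7.30, 8.56, 8.20 and 4.17 CPM in CX3CR1-Cre libraries. The groups lay far apart, and the increase was 6.04-fold (log2 2.60 ± 0.34, adjusted p = 2.64e-05). Cd4, the co-receptor of helper T cells that some mouse macrophages and monocytes also express, was at 69.3, 85.1, 92.7 and 93.6 CPM in mac-TFEB and at 23.02 to 42.6 CPM in CX3CR1-Cre libraries (2.61-fold, adjusted p = 0.00123). Il7r, the interleukin 7 receptor alpha chain, rose 2.58-fold. These 3 genes are the called ones of a list of 19 T and NK cell markers, with 18 of 19 log2 fold changes above 0. The list's sum was 157 to 354 CPM in mac-TFEB and 60.6 to 142 CPM in CX3CR1-Cre libraries, but it counts these 3 genes again. Their means were 44.4, 85.2 and 57.3 CPM in mac-TFEB, beside a median sum of 227 CPM. In CX3CR1-Cre libraries they were 7.36, 32.6 and 22.2 CPM, beside a median sum of 78.8 CPM. Defining T cell genes were uneven between libraries. Cd3e and Cd3g were named after their values were seen: Cd3e was at 0.170, 18.5, 1.21 and 0.750 CPM in mac-TFEB and at 0.529 to 4.61 CPM in CX3CR1-Cre libraries, and Cd3g at 0.170, 11.7, 0.621 and 0.530 CPM in mac-TFEB and at 0.0561 to 8.60 CPM in CX3CR1-Cre libraries. Lck, a kinase of T cell receptor signalling, was at 3.001 to 39.1 CPM in mac-TFEB and 2.54 to 20.2 CPM in CX3CR1-Cre libraries. Neither Cd3e, with a log2 fold change of 1.39, nor Cd3g or Lck was called (adjusted p = 0.700, 0.957 and 0.883), and the part of T cells in the increases of Cd28, Cd4 and Il7r was not tested. Cd28, Cd4 and Il7r were called whichever library was left out.

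Cd200r4 and Cd300lf were named among the largest increases, and Cd200r1 and Cd300a as called members of the co-stimulation and efferocytosis lists. Cd200r1, which restrains macrophages on binding CD200, and its paralog Cd200r4 rose 1.71-fold and 2.41-fold, and Cd300lf and Cd300a, receptors for lipids of dying cells, 2.48-fold and 1.43-fold. Cd200r4 was at 40.3, 56.2, 96.2 and 77.8 CPM in mac-TFEB libraries and at 22.6 to 36.4 CPM in CX3CR1-Cre libraries, with no overlap. These receptors belong to families of near copies, which 50-base reads may split between members. Cd274, which encodes PD-L1, rose 1.68-fold (57.1 ± 16.4 CPM in mac-TFEB, 34.003 ± 5.11 CPM in CX3CR1-Cre libraries), with 14.1% of its exon bases under an antisense gene. Among efferocytosis genes, which serve the uptake of dead cells, 2 of 21 rose (9.52%, beside 0.922% of all genes). They were Cd300a and the transglutaminase Tgm2 (1.57-fold). Anpep (CD13), an aminopeptidase of myeloid cells, rose 2.42-fold (398 ± 84.2 CPM in mac-TFEB, 164 ± 37.4 CPM in CX3CR1-Cre libraries). Without mac-TFEB library 3 the adjusted p was 0.297 for Cd274, 0.273 for Tgm2 and 0.207 for Cd200r1, and without mac-TFEB library 4 it was 0.0664 for Cd300a, which lost the call without library 3 too; Cd274 and Cd200r1 also lost the call without mac-TFEB library 2 or 4 or CX3CR1-Cre library 3, 4 or 5, and Tgm2 without mac-TFEB library 4 or CX3CR1-Cre library 3, 4 or 5.

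Secreted and matrix-acting genes moved both ways. The counts of the lists below stand beside 0.922% of all genes called higher and 0.453% called lower. Of 24 matrix proteases and inhibitors, Mmp12, the macrophage elastase, and Adam8, a membrane metalloprotease, rose and Mmp9, gelatinase B, fell. Adam8 was at 246, 329, 476 and 400 CPM in mac-TFEB and at 172 to 228 CPM in CX3CR1-Cre libraries (1.89-fold, adjusted p = 0.00337). Its Cre-neg means, 405 CPM in TFEBTG and 397 CPM in TFEBwt libraries, lay above the mac-TFEB mean of 363 CPM. Mmp9 was at 4.03, 11.8, 5.62 and 4.15 CPM in mac-TFEB libraries and at 33.97, 19.4, 41.5, 45.6 and 13.6 CPM in CX3CR1-Cre libraries (log2 -2.27 ± 0.56, adjusted p = 0.0305). The groups did not overlap for either gene. Mmp9 stands also in the neutrophil list, whose 9 measured members summed to 113 to 187 CPM in mac-TFEB and 147 to 166 CPM in CX3CR1-Cre libraries, with S100a8 at 0.511 to 2.58 CPM in mac-TFEB and 0.270 to 2.25 CPM in CX3CR1-Cre libraries. Of 21 complement genes, 2 fell: C6, a component of the membrane attack complex, was at 0.795, 3.32, 1.67 and 1.81 CPM in mac-TFEB libraries and at 13.02, 6.57, 14.2, 17.7 and 11.9 CPM in CX3CR1-Cre libraries, and C1qa, a chain of C1q, at 726 ± 199 CPM in mac-TFEB and 1231 ± 154 CPM in CX3CR1-Cre libraries. C6 differed between the fits of single omissions by little (log2 -3.12 to -2.51) and was called in each. In the Cre-neg cells C6 averaged 17.0 CPM in TFEBTG and 31.3 CPM in TFEBwt libraries, a difference not called (adjusted p = 0.442).

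The chemokine Ccl12, a ligand of CCR2, fell as the 1 call among 22 chemokines, at 357, 552, 465 and 774 CPM in mac-TFEB libraries and at 1162, 1166, 1052, 757 and 921 CPM in CX3CR1-Cre libraries (log2 -0.91 ± 0.22, adjusted p = 0.0216). Mac-TFEB library 4 overlapped the CX3CR1-Cre group. The B cell chemoattractant Cxcl13 was at 109 ± 27.7 CPM in mac-TFEB and 333 ± 205 CPM in CX3CR1-Cre libraries and was not called (adjusted p = 0.0951). Ccrl2, an atypical receptor that holds chemerin at the cell surface, rose 1.88-fold and Icam1, the adhesion molecule for leukocytes, fell to 493 ± 63.3 CPM in mac-TFEB, against 737 ± 34.5 CPM in CX3CR1-Cre libraries (log2 -0.58 ± 0.09, adjusted p = 0.000429), among 23 genes of chemokine reception and migration. Icam1 was also called in the Cre-neg comparison, with means of 373 CPM in TFEBTG and 531 CPM in TFEBwt libraries. Hepatocyte growth factor (Hgf) was the 1 call among 23 repair and growth factors, at 20.2 ± 2.23 CPM in mac-TFEB and 10.9 ± 2.03 CPM in CX3CR1-Cre libraries. The counts of these lists stand beside 0.922% of all genes called higher and 0.453% called lower. Left-out libraries ended calls: without mac-TFEB library 3 the adjusted p was 0.343 for Mmp12, 0.270 for C1qa, 0.181 for Ccrl2, 0.132 for Ccl12 and 0.0760 for Hgf, and without mac-TFEB library 4 it was 0.154 for Mmp9. Leaving out CX3CR1-Cre library 3 ended all 6 of these calls too.

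Inflammatory programmes as a whole were not called in the main fit. None of 30 inflammatory cytokine and NF-kB genes, 38 interferon response genes, 29 pattern recognition receptors, 10 Fc receptors and 19 alternative activation genes passed edgeR's test, with medians of 0.05, -0.15, -0.11, -0.02 and -0.24. At an unadjusted p under 0.05, 2 of the 30 were higher and 7 lower, 6 of the 38 were lower, 2 of the 29 were higher and 3 lower, 1 of the 10 was higher and 6 of the 19 were lower; over all genes, 7.25% were higher and 7.39% lower at that level. Nfkb2, the p100 subunit of NF-kB, was at 16.5 ± 4.85 CPM in mac-TFEB and 32.4 ± 9.55 CPM in CX3CR1-Cre libraries (adjusted p = 0.0733). Single genes depended on the method. Among 11 fits with other methods or sets of libraries, Nfkb2 was called lower in 5, Nfkbia in 6 and Mgl2 in 6, while Clec4d was called higher in 3. Of 18 resident cardiac macrophage genes none was called by edgeR and 8 were lower at an unadjusted p under 0.05 (median -0.38). Lyve1, the hyaluronan receptor of resident macrophages, was at 206, 272, 182 and 247 CPM in mac-TFEB libraries and at 360, 338, 429, 421 and 515 CPM in CX3CR1-Cre libraries. Its groups did not overlap, yet it missed the threshold (log2 -0.86 ± 0.29, adjusted p = 0.138). Among 21 monocyte genes none was called by edgeR, with 1 higher and 1 lower at an unadjusted p under 0.05.

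Of 31 transcription factors of the macrophage lineage list, 2 rose (Gfi1b and Bhlhe41, beside 0.922% of all genes) and 1 fell (Batf3, beside 0.453%). The list leaned downward, with a median of -0.24, and 4 were higher and 10 lower at an unadjusted p under 0.05 in edgeR. The DEC2 gene Bhlhe41, a repressor of clock and lipid genes that marks some self-maintaining macrophages, rose 1.65-fold (174 ± 27.7 CPM in mac-TFEB, 105 ± 8.34 CPM in CX3CR1-Cre libraries). Batf3, a partner of AP-1 and IRF factors in classical dendritic cells, fell to 10.2, 6.69, 6.18 and 7.06 CPM in mac-TFEB libraries, against 15.7, 16.2, 17.4, 14.1 and 15.9 CPM in CX3CR1-Cre libraries (log2 -1.08 ± 0.19, adjusted p = 0.0015). Of 25 ER chaperone genes, Herpud1 and Dnajb9, both of the removal of misfolded proteins from the endoplasmic reticulum, fell by 0.62 and 0.54 on the log2 scale. Of 25 antioxidant genes, Gpx3 and Prdx1, which reduce peroxides, rose 2.05-fold and 1.45-fold, and Pfkp, a phosphofructokinase isoform, was the 1 call among 23 glycolysis genes (1.37-fold). At an unadjusted p under 0.05 in edgeR, 6 ER chaperone genes were lower and 0 higher. By that measure 6 antioxidant genes were higher and 1 lower, and 7 glycolysis genes were higher and 1 lower. None of 35 oxidative phosphorylation genes and 18 iron and heme genes was called by edgeR (3 lower, and 1 higher and 5 lower, at an unadjusted p under 0.05). Over all genes, 7.25% were higher and 7.39% lower at that level. Gpx3 and Batf3 were called whichever library was left out, while without mac-TFEB library 3 the adjusted p was 0.296 for Prdx1, 0.212 for Bhlhe41, 0.203 for Pfkp, 0.0950 for Dnajb9 and 0.0514 for Herpud1.

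Cell cycle genes leaned upward throughout. All 42 measured members of the proliferation list had a log2 fold change above 0, with a median of 0.70, beside 6600 of 12795 genes above 0. Called members were 4 (9.52%, beside 0.922% of all genes): Uhrf1, Rrm2, Cenpe and Aurka. At an unadjusted p under 0.05 in edgeR, 28 were higher, beside 7.25% of all genes. Uhrf1, which keeps DNA methylation through replication, was at 21.2, 23.6, 36.4 and 40.1 CPM in mac-TFEB and at 8.73 to 20.9 CPM in CX3CR1-Cre libraries, and Rrm2, the small subunit of ribonucleotide reductase, at 56.1, 49.5, 97.8 and 136 CPM in mac-TFEB and 33.0 to 51.2 CPM in CX3CR1-Cre libraries. Libraries 3 and 4 of mac-TFEB were the high ones. The list's median was 0.66 between the Cre-neg groups, TFEBTG over TFEBwt, and 0.46 in CCR2-positive cells, mac-TFEB over CX3CR1-Cre. Cenpe, a motor of chromosome alignment, was called in the Cre-neg comparison too (adjusted p = 0.0254). All 4 calls ended without mac-TFEB library 4, with an adjusted p of 0.194, 0.358, 0.265 and 0.163, as they did without mac-TFEB library 3 or CX3CR1-Cre library 3.

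**Figure D3:**
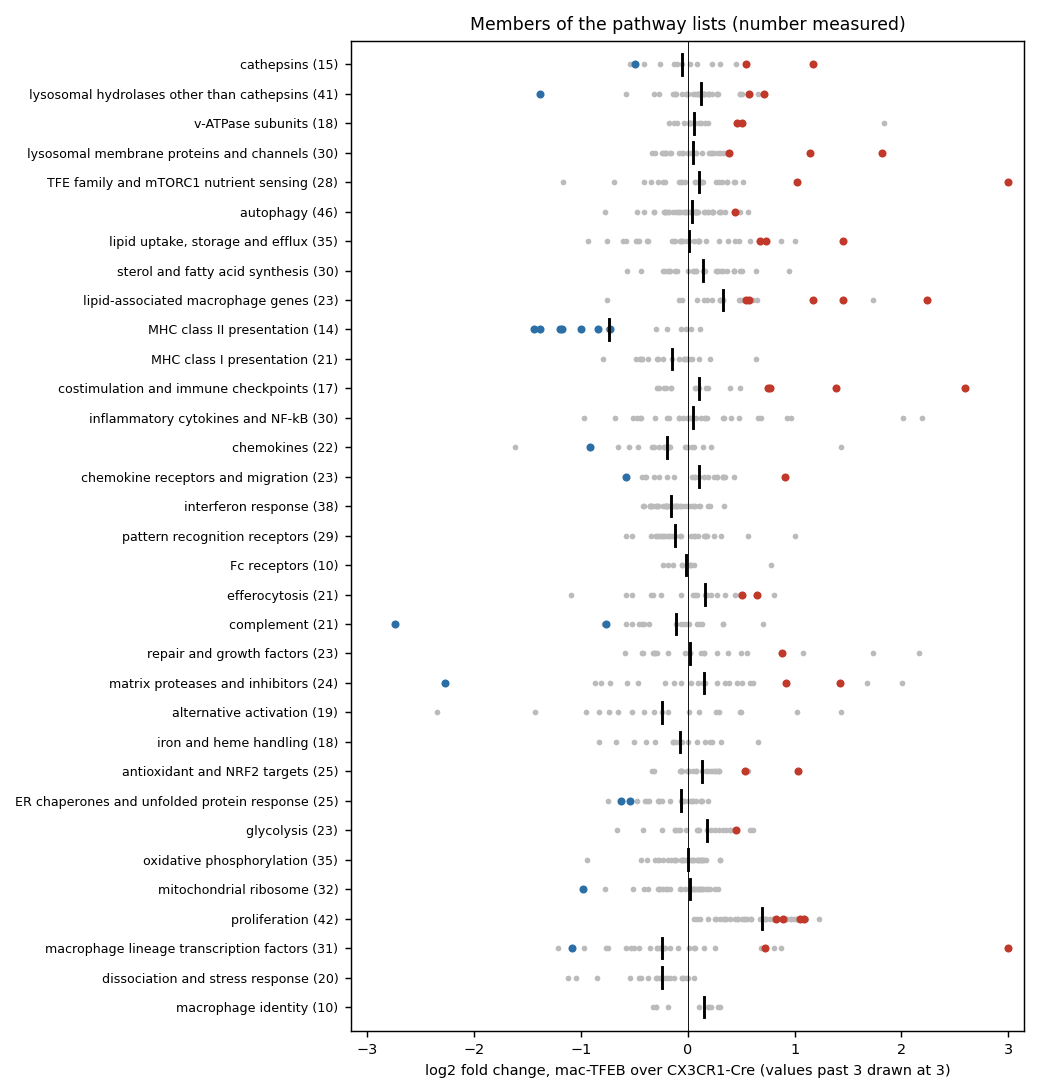
Log2 fold change, mac-TFEB over CX3CR1-Cre, of every measured member of 33 gene lists (number measured in brackets), with called increases in red, called decreases in blue, other members in grey and the median of each list as a black bar; 2 values past 3 (Tfeb and Gfi1b) are drawn at 3. The class II list lies to the left with 7 blue points and a median of -0.74, and the proliferation list lies to the right of 0 with 4 red points.

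Gfi1b, a zinc-finger repressor of the erythroid and platelet lineages, was the called gene with the largest log2 fold change. It was at 21.003, 14.0, 19.7 and 18.8 CPM in mac-TFEB libraries, 1663 reads in all, and at 0.265, 0.0561, 0, 0 and 0.368 CPM in CX3CR1-Cre libraries, 15 reads in all. The fitted log2 fold change was 7.00 ± 0.58 (adjusted p = 1.68e-09), and with so few reads in the CX3CR1-Cre group its size is uncertain. Gfi1b averaged 13.4 CPM in TFEBTG and 0.920 CPM in TFEBwt Cre-neg libraries. Other defining erythroid genes were low, with Alas2 at 0.654 to 1.11 CPM in mac-TFEB and 0.0771 to 1.21 CPM in CX3CR1-Cre libraries. Gfi1b lies on chromosome 2 (28609450 to 28621982), near Mrps2, a mitochondrial ribosome protein, Gtf3c5, part of TFIIIC, which recruits RNA polymerase III, and the model Gm10134, named after its values were seen, which fell by 0.98, 1.02 and 1.13 on the log2 scale. Not all genes nearby fell. Tsc1, the nearest tested gene at 32 kb on the other side, was not called (log2 0.32). Ralgds and Gbgt1, which lie between Gfi1b and Mrps2, were not called either (log2 -0.66 and -0.98). Gfi1b, Mrps2 and Gtf3c5 were called in the Cre-neg comparison.

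The remaining genes of large change were of mixed function. Npy, neuropeptide Y, was at 8.51, 8.85, 31.6 and 20.9 CPM in mac-TFEB and at 1.80 to 3.12 CPM in CX3CR1-Cre libraries (7.09-fold, adjusted p = 0.00146). Stra6l, a retinol transporter, rose 4.36-fold, Fam198b, a Golgi protein, 2.88-fold and Ahnak2, a large scaffold protein, 2.63-fold, while Zranb3, an ATPase that remodels stalled replication forks, rose 2.32-fold. Tmem176a, which encodes an ion channel of intracellular membranes in antigen-presenting cells, fell, as did its neighbour and relative Tmem176b, which was named after its values were seen. Tmem176a was at 246, 288, 193 and 255 CPM in mac-TFEB libraries and at 432, 463, 422, 475 and 518 CPM in CX3CR1-Cre libraries (log2 -0.91 ± 0.11, adjusted p = 7.46e-06), and Tmem176b fell by 0.73. The groups were well apart in both, and in the Cre-neg cells neither was called (log2 -0.29 and -0.15). Sema4a, a semaphorin that acts on T cells, fell by 1.15, Relt, a TNF receptor family member, by 0.96, Lifr, the LIF receptor, by 0.94, Zfp36l1, an RNA-binding protein that destabilizes mRNA, by 0.92, Leng8 by 1.05 and Rps6ka4, the kinase MSK2, by 0.87. Of the exon bases of Zfp36l1, 55.9% lie under a non-coding gene on the opposite strand. The mast cell tryptase gene Tpsb2 had the largest fitted decrease (log2 -6.56 ± 1.74, adjusted p = 0.0484), but it rested on CX3CR1-Cre libraries 4 and 5, at 51.3 and 7.48 CPM, with the other 3 at 0.0385 CPM or less and mac-TFEB at 0.0441 to 0.196 CPM; without CX3CR1-Cre library 4 the adjusted p was 0.259. Without mac-TFEB library 3, Ahnak2, Zranb3, Sema4a, Relt, Lifr, Zfp36l1, Leng8 and Rps6ka4 lost the call as well.

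**Figure D4:**
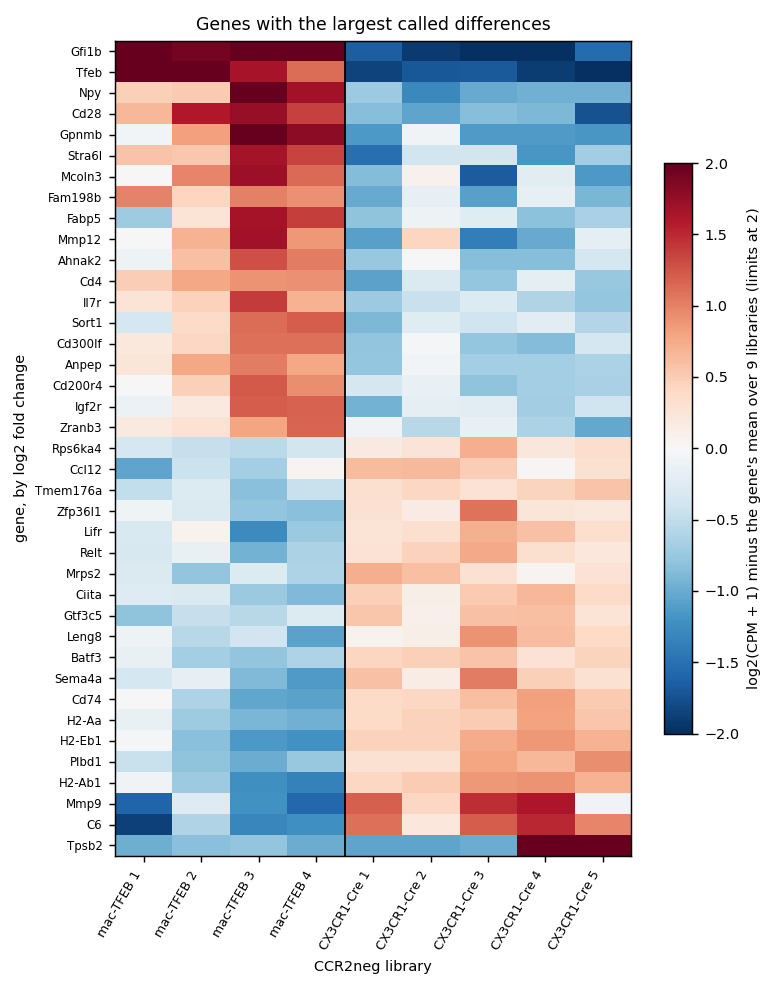
Log2(CPM + 1) of the 19 largest called increases and 20 largest called decreases, each gene centred on its mean over the 9 CCR2neg libraries, with the 4 mac-TFEB libraries left of the black line and the 5 CX3CR1-Cre libraries right of it; colours stop at 2 and -2. Most increases are deeper in mac-TFEB libraries 3 and 4 than in library 1, whereas Tfeb is deepest in library 1, and Tpsb2 is high in CX3CR1-Cre libraries 4 and 5.

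Within mac-TFEB the size of the change did not follow the level of Tfeb. Of the 118 called increases, library 1, with the most Tfeb, was the lowest of the 4 libraries in 67 genes (56.8%, beside 31.2% of all genes), and library 3 was the highest in 63 (53.4%, beside 17.9%). The median log2 difference of the called increases from the CX3CR1-Cre mean (CPM + 1) was 0.53, 0.65, 1.01 and 0.95 in libraries 1 to 4, in which Tfeb was at 335, 250, 98.1 and 67.4 CPM. For the called decreases it was -0.58, -0.66, -0.89 and -0.85. Since these 4 libraries also chose the called genes, and 4 are too few for a correlation, the order is given as a description. Libraries 1 and 2 lacked Xist and libraries 3 and 4 had it, and library 1 held the most fibroblast (1615 CPM), endothelial (598 CPM) and mural (213 CPM) marker sums of the group, against 537 to 824 CPM, 80.1 to 144 CPM and 9.93 to 27.0 CPM in the other 3; the part of these in the order was not tested.

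**Figure D5:**
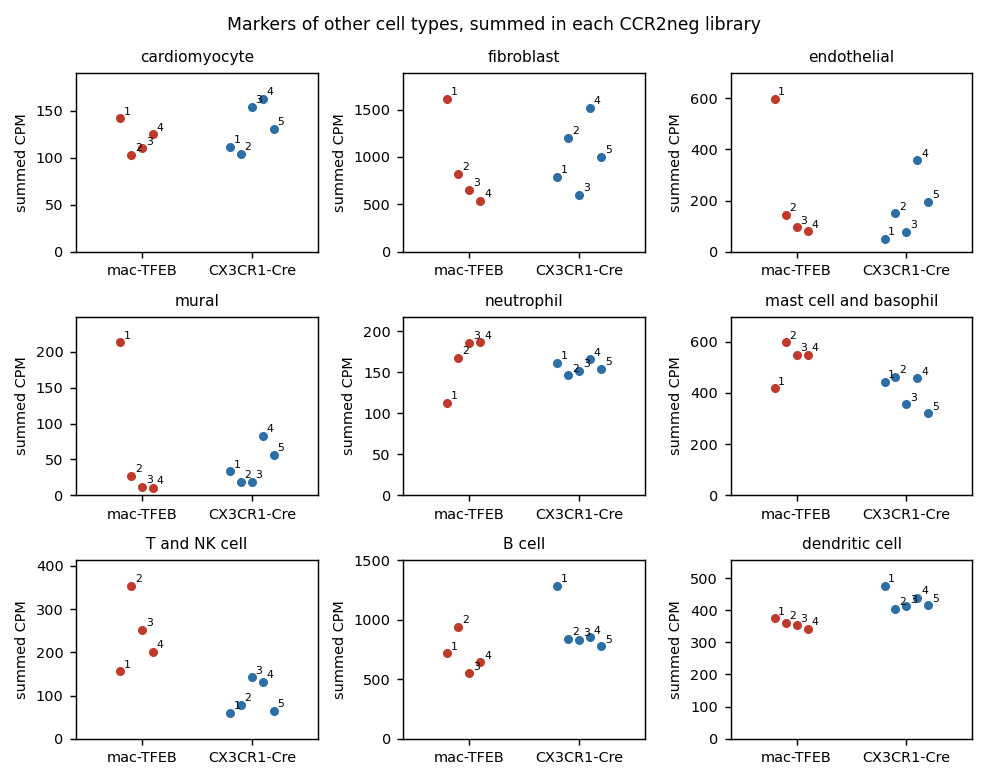
Summed CPM of the measured markers of 9 other cell types in each CCR2neg library (vertical axes start at 0), with mac-TFEB in red on the left and CX3CR1-Cre in blue on the right of each panel; numbers are label numbers. Mac-TFEB library 1 is the highest for fibroblast, endothelial and mural markers. All mac-TFEB sums for T and NK cell markers (157 to 354 CPM) lie above the CX3CR1-Cre sums (60.6 to 142 CPM). These T and NK cell sums include the called genes Cd28, Cd4 and Il7r, so they do not measure T cells apart from those genes.

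Set beside the Cre-neg libraries, the 2 directions differed in how often mac-TFEB was the outermost group. The genes were called for their difference between mac-TFEB and CX3CR1-Cre, so these 2 groups tend to be outermost by that choice. No share over all genes was computed, and the counts are given as a description. In 100 of the 118 called increases mac-TFEB had the highest mean of the 4 CCR2neg groups, as with Cd28 (44.4 CPM in mac-TFEB and 18.5, 10.1 and 7.36 CPM in TFEBTG Cre-neg, TFEBwt Cre-neg and CX3CR1-Cre libraries). The TFEBTG Cre-neg group had the highest mean in 16 and the TFEBwt Cre-neg group in 2. Igf2r, Sort1, Plin2 and Adam8 were among the 16. In the 58 called decreases mac-TFEB had the lowest mean in 24 and the TFEBTG Cre-neg group in 33, as with H2-Aa above. The CX3CR1-Cre group had the lowest mean of the 4 in 98 of the called increases and the highest in 50 of the called decreases, so for most of these genes the Cre-neg means lay between the groups compared or beyond mac-TFEB. Cd4 was one of the genes where mac-TFEB stood above all others, with a mean of 85.2 CPM. Its means were 28.7, 19.5 and 32.6 CPM in TFEBTG Cre-neg, TFEBwt Cre-neg and CX3CR1-Cre libraries.

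In the CCR2-positive fraction 5 genes (0.0391%) were called in the same comparison of mac-TFEB with CX3CR1-Cre, and all 5 (Tfeb, Gfi1b, Mrps2, Gtf3c5 and Gm10134) were among the 176. Cd28 had a log2 fold change of 1.44 there, beside 2.60 in CCR2neg cells, Gpnmb 1.02 beside 2.24, Ctsd 0.41 beside 1.17, H2-Aa -0.51 beside -1.20 and Tmem176a -0.50 beside -0.91. The difference between the fractions was not called for any gene by edgeR, DESeq2 or limma-voom, while 505 genes (3.95%) had an unadjusted p under 0.05 in edgeR; the interaction was 1.15 ± 0.47 for Cd28, 1.22 ± 0.60 for Gpnmb, 0.76 ± 0.24 for Ctsd and -0.69 ± 0.22 for H2-Aa (log2 scale, CCR2neg minus CCR2-positive). A larger effect in CCR2neg cells is therefore not shown by these counts.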

How the data were processed

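Raw read counts per gene were deposited by the authors as 1 filtered table; no normalized values were used. Per the labels' protocols, polyA RNA was amplified with a SMARTer Ultra Low kit and read as unstranded single reads. Bowtie2, TopHat2 2.0.10, HTSeq, DESeq and edgeR are named in the submitters' processing notes; the rule of the filter is not stated there. The 36 libraries, in 8 groups, were fitted together with edgeR 4.0.16 (R 4.3.3): TMM scaling, group means and a quasi-likelihood F-test of mac-TFEB minus CX3CR1-Cre, with Benjamini-Hochberg adjustment over 12795 genes; filterByExpr removed 0. The standard error is the log2 fold change over the square root of F. Depth was 16547457 to 29896334 counts per library, so counting error is small beside the spread between libraries for all but low genes. On simulated counts 57 of 100 genes changed by 1 and 83 of 100 changed by 2 on the log2 scale were called, with 3 false calls. The simulated libraries were drawn independently, with no shared animals, Xist difference or outlying library. The 3 false calls therefore do not give the error rate of the real comparison. DESeq2 1.42.0, limma 3.58.1, other scalings, filters, blocks and left-out libraries were tried as alternatives. The libraries of 1 group differed by more than sampling noise in all 16 pairs (chi-square per degree of freedom 22.9 to 117). Members and lists were chosen with earlier results of these data known. Genes were named by a rule: a fixed set of TFEB and sort genes, the 20 largest called increases and 20 largest decreases of at least 10 CPM in a group, the 10 called genes of highest mean CPM, and called list members with, for lists with fewer than 2 calls, those of smallest p; genes outside it are marked as picked with their values in view. Not all 142 genes so chosen are described; 1 that met the rule is not reported here. Gene positions are GENCODE vM21 (GRCm38).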

Additional observations from a re-analysis of the deposited data

Results flagged for a closer look

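In 20 of 282 groups of values tested, 1 library lay far from the others of its group by Dixon's criterion, where chance gives about 1 in 20, or 14.1. None of the causes was tested.

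Mac-TFEB library 1 stood apart in genes of vessel wall and stroma: Acta2 was at 76.3 CPM (1.90 to 5.90 in the other mac-TFEB libraries), Kdr at 26.3 CPM (5.72 to 6.69) and Col3a1 at 55.0 CPM (7.68 to 11.3). Mac-TFEB library 2 stood apart in T cell genes, with Cd3e at 18.5 CPM (0.170 to 1.21) and Cd3g at 11.7 CPM (0.170 to 0.621), and in Tnfrsf1a, at 225 CPM (187 to 191). Mac-TFEB library 3 was high in Spp1, at 9621 CPM (884 to 1608), in Bhlhe41, at 216 CPM (158 to 163), and in Pfkp, at 158 CPM (133 to 137).

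Among CX3CR1-Cre libraries, library 2 was high in Gpnmb, at 1267 CPM (594 to 608 in the other CX3CR1-Cre libraries), in Anpep, at 230.5 CPM (139 to 154), and in Cd68, at 2382 CPM (1910 to 2032), and low in Vpreb3, at 0.337 CPM (0.818 to 0.953). Library 3 was high in Tfe3, at 123 CPM (83.7 to 90.0), in Socs3, at 391 CPM (219 to 223), in Rps6ka4, at 19.96 CPM (13.3 to 15.2), and in Zfp36l1, at 189 CPM (99.5 to 110), and low in Fdft1, at 7.52 CPM (11.8 to 12.97). Library 4 was high in Tpsb2, at 51.3 CPM (0 to 7.48), and library 5 low in Cd28, at 4.17 CPM (7.30 to 8.57).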

How the results depend on the processing

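The 176 calls, and the 163 left after genes called between the Cre-neg groups were set aside, numbered 311 and 256 by DESeq2, 1351 and 1286 by limma-voom, 71 and 70 from the 9 libraries alone, 428 and 351 with a term for Xist, and 810 and 565 from libraries with Xist alone. Increases made up 47.6%, 52.3% and 49.9% of the calls by limma-voom, with the Xist term and with Xist libraries alone, against 67%. Setting genes aside at an unadjusted p left 97. With the label number as a replicate block the numbers were 310 and 271, and with a random replicate block of genotype and number 408 and 363; between the genotypes, same-numbered libraries correlated at -0.385 to 0.109 over 4 pairs and 0 libraries correlated best with their own number, so the numbers do not pair mac-TFEB with CX3CR1-Cre libraries, whereas within a genotype libraries of 1 number may share an animal (correlation of that block 0.266). Leaving out 1 library gave 59 to 260 and 52 to 244, lowest without mac-TFEB library 3. Other scalings and filters gave 172 to 176 and 160 to 163. Without the 2 libraries of lowest correlation, chosen after seeing the data, there were 137 and 127. The difference between fractions gave 0 calls in each. Of 88 called genes chosen to be named, 34 were called under every alternative, 38 whichever library was left out, 43 lost the call in the 9 libraries alone (Lipa at an adjusted p of 0.0718 and Mrps2 at 0.0538), and 0 changed direction. The causes were not tested. Depth limits genes of few reads, such as Gfi1b and Tpsb2 in the group where they are low.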

Other observations

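Genes of this section were chosen after their values were seen. Tnfrsf1a, Nfkbib, Tifa and Socs3 stood in none of the lists and each fell; they were picked for their decrease, and of the 30 listed inflammatory cytokine and NF-kB genes none was called by edgeR, with 2 higher and 7 lower at an unadjusted p under 0.05 (median 0.05). Tnfrsf1a, the TNF receptor that signals death and inflammation, was at 198 ± 18.1 CPM in mac-TFEB and 269 ± 24.1 CPM in CX3CR1-Cre libraries (SD, n = 4 and 5; log2 -0.44, edgeR adjusted p = 0.0483), and it was also called between the Cre-neg groups, with means of 176 CPM in TFEBTG and 248.5 CPM in TFEBwt libraries. Nfkbib, an inhibitor of NF-kB, was at 65.7 ± 10.7 CPM in mac-TFEB and 108 ± 9.22 CPM in CX3CR1-Cre libraries, Tifa, an adaptor of TRAF6, at 73.1 ± 9.07 CPM in mac-TFEB and 95.3 ± 4.42 CPM in CX3CR1-Cre libraries, and Socs3, a feedback inhibitor of cytokine receptors, at 144 ± 19.4 CPM in mac-TFEB and 256 ± 75.9 CPM in CX3CR1-Cre libraries. All 4 lost the call without mac-TFEB library 3 and without CX3CR1-Cre library 3, among others.

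Dnmt3a, the de novo DNA methyltransferase, was at 148, 130, 217 and 154 CPM in mac-TFEB libraries and at 82.2, 102, 96.9, 88.2 and 87.9 CPM in CX3CR1-Cre libraries (1.77-fold, edgeR adjusted p = 0.000164). Entpd1, the ectoenzyme CD39 that degrades extracellular ATP, was at 795, 697, 537 and 560.1 CPM in mac-TFEB libraries and at 391.9, 368, 318, 454 and 397 CPM in CX3CR1-Cre libraries (1.68-fold, edgeR adjusted p = 0.00542). Neither overlapped between the groups, both kept the call in each omission of 1 library, and Entpd1 lost it without the 2 libraries of lowest correlation with their group (adjusted p = 0.0921). For Entpd1, unlike most of the called increases, library 1 was the highest of the mac-TFEB libraries.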
